A study of Rattus norvegicus with 9 samples.

Results

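Interferon-stimulated antiviral genes, 39 of them, were followed across cultured rat heart cells in which TCF7L2 was raised or targeted for knockdown. The genes were named by symbol as a set known to be induced by interferon, with no threshold on their values. The set was, however, chosen with earlier results of these data known. Shares over all genes thus stand beside its counts as a description and not as a test. Of the 39 genes, 36 were found among the 14607 genes listed in any library. Xaf1, Herc6 and Parp12 were listed in no library under their symbol or gene identifier and have no values here. All 36 entered the tests, which covered 11761 genes.

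The cells were primary cultures labelled neonatal rat cardiomyocytes (NRCMs), isolated by enzyme digestion from hearts of SD rats aged 1 to 2 days and labelled wild type in genotype. Every culture was infected with a lentivirus for 16 h and then kept in medium with serum for 48 h. There were 3 groups of 3 libraries, lenti-NC (the vector control), lenti-TCF7L2 WT (TCF7L2 overexpression) and lenti-TCF7L2 shRNA (a short hairpin RNA for TCF7L2 knockdown). TCF7L2 is a DNA-binding partner of beta-catenin in canonical Wnt signalling. The labels do not say whether lenti-NC carries a hairpin of its own or which species the TCF7L2 insert comes from. Nothing ties a replicate to a culture of its own either, and the p-values then measure only the spread between these samples, which may be technical. No uninfected culture was analysed here, so each level below is one in virus-exposed cells.

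Messenger RNA was sequenced to between 15085922 and 16478295 expected counts per library (estimated reads assigned to genes). Tcf7l2 itself had 595, 540 and 510 counts with lenti-NC, 2251, 3240 and 1434 counts with lenti-TCF7L2 WT, and 388, 465 and 391 with lenti-TCF7L2 shRNA. It was called higher in lenti-TCF7L2 WT than in lenti-NC (log2 difference 1.97, SE 0.27, adjusted p = 8.46e-04, edgeR). The 3 shRNA libraries all lay below the 3 controls, but that difference was not called (log2 difference -0.43, SE 0.27, adjusted p = 0.511, edgeR). All 3 groups share 1 estimate of spread per gene in that fit. The SD of Tcf7l2 was 60.1 CPM with lenti-TCF7L2 WT, 2.99 CPM with lenti-NC and 2.62 CPM with lenti-TCF7L2 shRNA. Replicates of lenti-TCF7L2 WT differed more among themselves than those of the other groups, with a median SD of log2 CPM over all genes tested of 0.241, against 0.0802 in lenti-NC and 0.0789 in lenti-TCF7L2 shRNA. CPM here is the count divided by the scaled library size and given per 1e+06 counts, and replicate numbers are given in the order 1, 2, 3 throughout.

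Interferons are secreted proteins released when a cell senses viral nucleic acid. Type I interferon binds IFNAR1 and IFNAR2 and activates the kinases JAK1 and TYK2, which lead to a complex with STAT2 and IRF9 that binds the interferon-stimulated response element (ISRE) in the promoters of target genes. Interferon gamma signals through JAK1 and JAK2 to genes with a gamma-activated site (GAS). The products of the induced genes block entry, replication and release of viruses, and many are present at a low level in cells that have met no virus.

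Promoters were examined first, for the ISRE and GAS described above and for a TCF motif. RefSeq promoters of the GRCr8 assembly (250 bases before the gene start) were matched by gene identifier for 29 of the 36 genes. Isg15, Usp18, Oas2, Ifit2, Ifitm1, Mx2 and Rtp4 had no entry. The ISRE was searched on both strands as GAAA, any 2 bases and GAAA again, which reads TTTC, 2 bases and TTTC on the other strand, and it was held by 18 of the 29 promoters (62.1%) and by 1140 of the 33469 promoters in the whole table (3.41%). GAS, searched as TTCNNNGAA (both strands alike), was held by 10 of the 29 (34.5%) and by 7.67% of all promoters. The TCF motif CTTTGAT, searched on both strands, was in 0 of the 29 and in 3.15% of all promoters. The whole table was not limited to genes tested or expressed here, so these shares set unlike groups of genes side by side. Matches of one motif may overlap matches of another, as in Bst2, where a GAS match runs into the ISRE. A match is a description of letters in this window, and binding was not measured.

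Stretches around the ISRE are printed for genes on which the results below turn, 5′ to 3′ on the strand of the gene, with the ISRE match in capitals. Where capitals run longer than 10 bases, overlapping matches are joined.
Bst2 (chr16:18255063-18255118, - strand): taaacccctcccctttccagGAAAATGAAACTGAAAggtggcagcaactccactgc
Oas1a (chr12:41330405-41330460, + strand): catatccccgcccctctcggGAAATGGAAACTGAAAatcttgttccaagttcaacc
Oas1b (chr12:41395876-41395931, - strand): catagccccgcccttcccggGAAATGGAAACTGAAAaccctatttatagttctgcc
Ifit3 (chr1:241527262-241527311, + strand): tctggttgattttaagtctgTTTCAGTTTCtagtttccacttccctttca
Irf7 (chr1:205800063-205800112, - strand): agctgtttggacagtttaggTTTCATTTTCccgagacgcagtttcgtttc
Rsad2 (chr6:48788238-48788287, - strand): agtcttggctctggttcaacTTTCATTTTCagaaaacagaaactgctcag
Gbp2 (chr2:234005676-234005725, + strand): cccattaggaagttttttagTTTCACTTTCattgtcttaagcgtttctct
Gbp5 (chr2:233910923-233910972, + strand): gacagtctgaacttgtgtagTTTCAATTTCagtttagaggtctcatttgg
Irgm (chr10:33742583-33742632, - strand): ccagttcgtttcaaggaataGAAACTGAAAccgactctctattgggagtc
Ifitm2 (chr1:205482352-205482401, - strand): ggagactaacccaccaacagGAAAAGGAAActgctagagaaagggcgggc
Ifitm3 (chr1:205541773-205541822, - strand): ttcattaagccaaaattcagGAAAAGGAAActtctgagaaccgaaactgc
Isg20 (chr1:142239947-142239996, + strand): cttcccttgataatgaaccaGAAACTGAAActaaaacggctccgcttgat

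Counted on either strand, the word GAAACTGAAA was the most frequent ISRE match, in 9 promoters, Ifit3 among them. Ifitm2 and Ifitm3 shared another, GAAAAGGAAA, which Ifi27 also holds. The pair Oas1a and Oas1b carried the same run of capitals. Of the 18 genes with an ISRE, 15 had one within 100 bases of the gene start, and the nearest match of each lay 12 to 147 bases before it.

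Irf1 and Ifi47 had no ISRE in the window and are shown for contrast with their GAS matches in capitals.
Irf1 (chr10:38417773-38417821, + strand): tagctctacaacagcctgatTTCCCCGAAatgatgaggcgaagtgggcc
Ifi47 (chr10:33798512-33798676, + strand): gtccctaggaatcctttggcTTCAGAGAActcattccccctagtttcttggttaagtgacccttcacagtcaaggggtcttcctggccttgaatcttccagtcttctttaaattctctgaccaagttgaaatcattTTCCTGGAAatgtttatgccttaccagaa
Irf1 encodes a transcription factor known as an early target of interferon gamma, and Ifi47 an interferon-inducible GTPase. Oasl, which is among the genes called most firmly below, held none of the 3 motifs in its window.

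**Figure D1:**
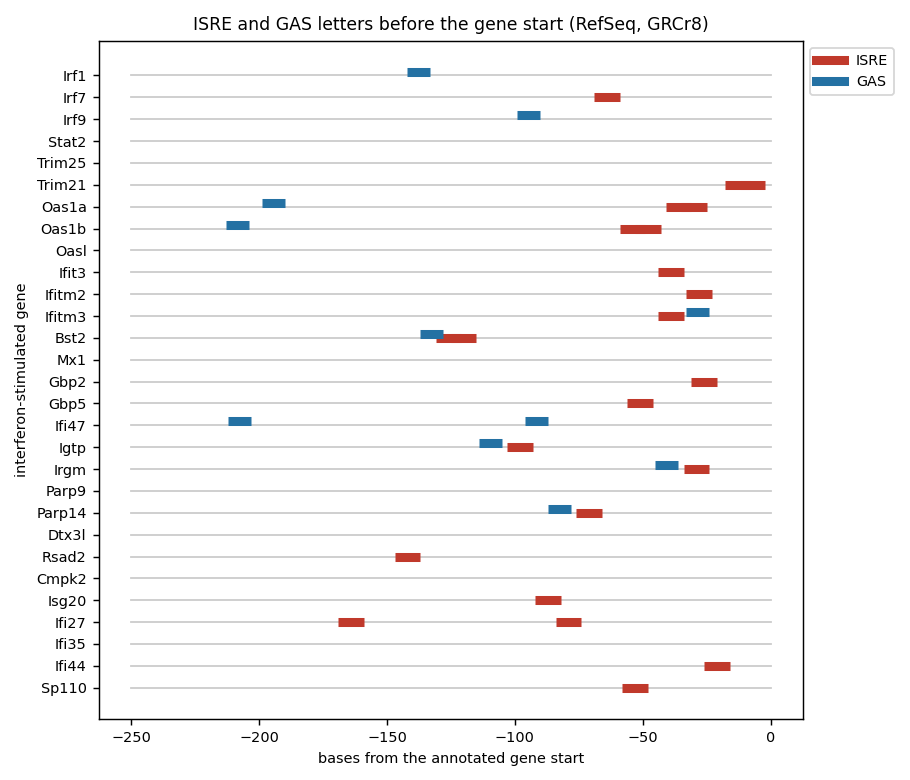
Positions of ISRE and GAS matches in the 250 bases before the gene start (horizontal axis, bases from the start) for the interferon genes with a RefSeq promoter, 1 row per gene. Of the 18 genes with an ISRE, 15 have one within 100 bases of the start.

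In the control cultures the genes were expressed at widely different levels. Levels are compared between genes as FPKM, fragments scaled to gene length and library size, because these account for gene length. The mean of the 3 lenti-NC libraries ran from 0.913 FPKM for Oas2, an oligoadenylate synthetase, to 476 ± 20.4 FPKM (SD, n = 3) for Ifitm3, which blocks fusion of viral and endosomal membranes. Ifitm2 and Ifitm1 followed at 249 ± 6.61 and 221 ± 3.04 FPKM. Ifi27, a small membrane protein of mitochondria, stood at 205 ± 15.8 FPKM, and the spread of Ifi27 and Ifitm1 overlapped. The fifth was Bst2 (tetherin), which holds budding virus at the cell surface, at 51.4 ± 1.02 FPKM. The median of the 36 genes was 10.6 FPKM, beside 11.6 FPKM over all genes tested.

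Below these 5 the order is a graded one, and many neighbours in it lie within each other's spread. Sp110, Irf7 and Stat2 came at 30.2 ± 2.46, 30.1 ± 4.50 and 28.4 ± 1.47 FPKM. Lowest were Ifi47 at 3.42 ± 0.595, Cmpk2 at 2.56 ± 0.747, Rsad2 at 2.28 ± 0.787 and Oas2 at 0.913 ± 0.160 FPKM. Rsad2 (viperin) makes a chain-terminating nucleotide, and Cmpk2, its neighbour on the chromosome, is a nucleotide kinase.

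**Figure D2:**
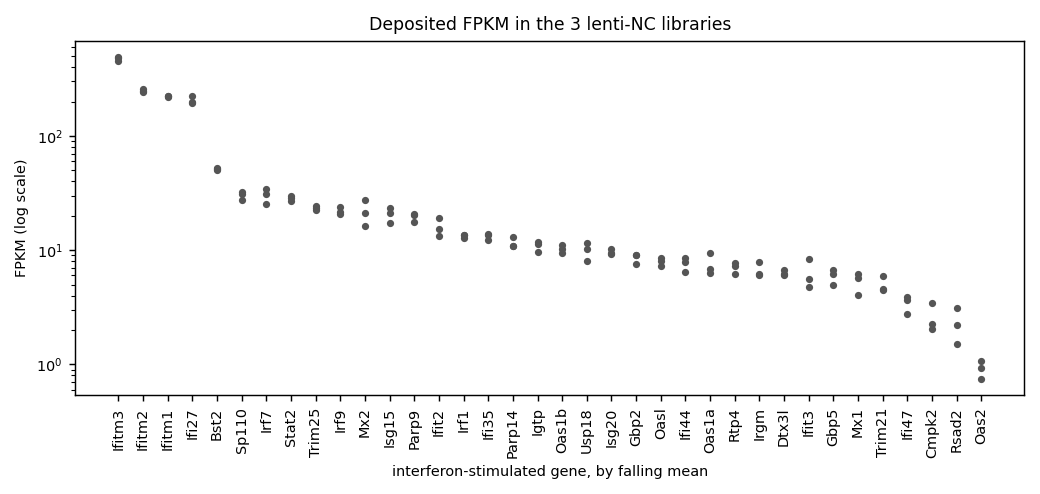
Deposited FPKM of the 36 interferon genes in the 3 lenti-NC libraries (points, log axis), ordered by their mean. Ifitm3 is highest at 476 FPKM and Oas2 lowest at 0.913 FPKM.

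The 3 Ifitm genes made up most of the set's signal. Summed over the 36 genes, FPKM was 1575, 1546 and 1610 with lenti-NC, of which the Ifitm genes made 58.1%, 62.2% and 59.8%. The sum was 2394, 2615 and 3399 with lenti-TCF7L2 WT and 1115, 974.9 and 1044 with lenti-TCF7L2 shRNA, so the 3 groups did not overlap. Without the Ifitm genes the sum was 659.6, 584.1 and 648.0 FPKM with lenti-NC, 661.6, 965.5 and 899.6 FPKM with lenti-TCF7L2 WT, and 391.1, 328.2 and 340.8 with lenti-TCF7L2 shRNA. The shRNA libraries were still lowest, but replicate 1 of lenti-TCF7L2 WT then lay just above the highest control. In bulk RNA, fewer cells of a type and less RNA per cell cannot be told apart.

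All comparisons were drawn from 1 fit of all 9 libraries, and a difference was called where the adjusted p of edgeR's quasi-likelihood test was under 0.05. The comparison of lenti-TCF7L2 shRNA with lenti-NC asks what the knockdown vector did to these genes. None of the 36 was called higher and 12 were called lower, Bst2, Gbp2, Gbp5, Ifi27, Ifit3, Ifitm1, Irf7, Irgm, Oas2, Oasl, Rsad2 and Rtp4. Of all genes tested, 1.32% were called higher and 2.32% lower. The median log2 difference of the 36 was -0.894, beside 0.008 over all genes, and 33 of the 36 had a negative difference. In 32 genes all 3 shRNA libraries lay below all 3 controls (21% of all genes did), and in 2, Irf1 and Isg20, all lay above (19.9% of all genes did).

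With lenti-TCF7L2 WT against the same controls, 9 genes were called higher, Gbp2, Ifi47, Ifitm1, Ifitm2, Ifitm3, Irf1, Oas1b, Oasl and Sp110, and none lower. Of all genes tested, 18% were called higher and 13.8% lower, so calls of the higher kind were common throughout the transcriptome. The median log2 difference of the 36 was 0.495, beside 0.030 over all genes. Groups did not overlap for 10 genes, all higher (24.8% of all genes), and for none lower (22%). The count of 9 is read against that background.

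Between the 2 TCF7L2 vectors, 33 of the 36 genes were called higher in lenti-TCF7L2 WT than in lenti-TCF7L2 shRNA and none lower, while 18.4% of all genes were called higher and 14.7% lower. The median log2 difference was 1.24, beside 0.001 over all genes. The 3 genes not called were Trim25, Trim21 and Isg20. In the 33 called genes every lenti-TCF7L2 WT library lay above every shRNA library (24.1% of all genes), and in none did the reverse hold (23.2%). The comparisons share libraries, 2 of them the same controls, so their values are given side by side and not as support for one another.

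**Figure D3:**
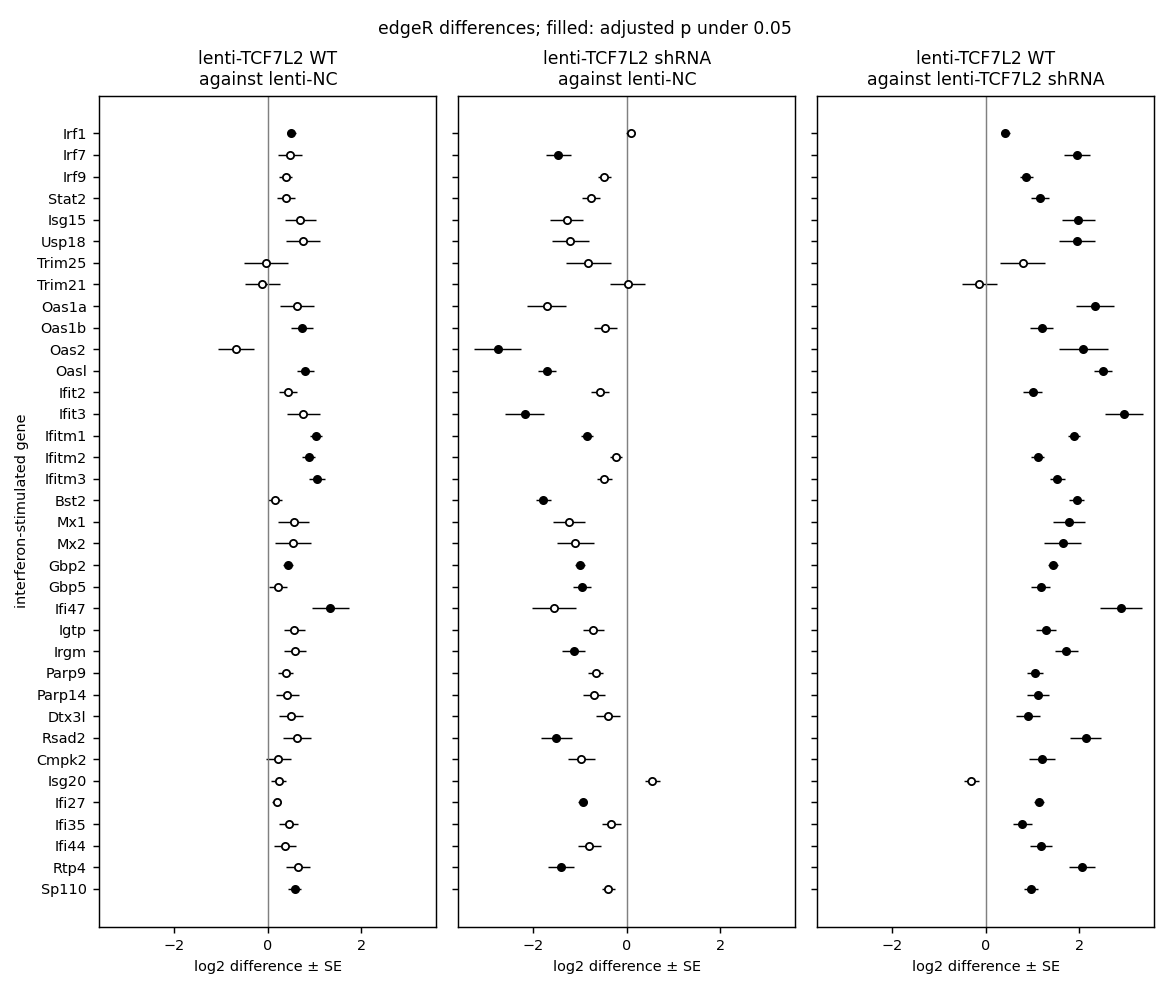
Log2 differences with standard errors (horizontal axis) of the 36 interferon genes, ordered by role, in 1 panel for each of the 3 comparisons, with filled markers for called differences. In the shRNA comparison 33 of the 36 values are negative.

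Among the transcription factors, Irf7, the factor that amplifies interferon production, carried the largest difference. Irf7 read 69.3, 51.3 and 62.4 CPM with lenti-NC, 54.9, 114 and 85.6 CPM with lenti-TCF7L2 WT, and 28.0, 17.6 and 20.6 CPM with lenti-TCF7L2 shRNA. All shRNA libraries were below the controls, and the lenti-TCF7L2 WT libraries straddled them. It fell with the hairpin (log2 difference -1.47, SE 0.27, adjusted p = 0.0203, edgeR) and was not called with lenti-TCF7L2 WT (log2 difference 0.48, SE 0.26, adjusted p = 0.189).

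Irf1 moved otherwise. It read 28.7, 28.8 and 27.3 CPM with lenti-NC, 35.1, 44.5 and 40.1 CPM with lenti-TCF7L2 WT, and 30.7, 29.1 and 29.9 CPM with lenti-TCF7L2 shRNA. It rose with lenti-TCF7L2 WT, where no library overlapped a control (log2 difference 0.50, SE 0.10, adjusted p = 0.00483, edgeR). With the hairpin its log2 difference was 0.08 (SE 0.10, adjusted p = 0.808), and of the 4 factors it alone had a positive value there. Stat2 and Irf9, both parts of the complex that binds the ISRE, had log2 differences of -0.76 (adjusted p = 0.0785) and -0.48 (adjusted p = 0.115) with the hairpin, neither called. Both were called higher in lenti-TCF7L2 WT than in lenti-TCF7L2 shRNA, Stat2 by 1.15 (SE 0.20, adjusted p = 0.00223) and Irf9 by 0.86 (SE 0.14, adjusted p = 0.00176).

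ISG15 is a ubiquitin-like protein that is attached to other proteins, and USP18 removes it and restrains signalling at IFNAR2. Isg15 read 13.8, 11.2 and 15.2 CPM with lenti-NC, 11.3, 24.2 and 29.4 CPM with lenti-TCF7L2 WT, and 7.19, 3.91 and 5.44 CPM with lenti-TCF7L2 shRNA. Usp18 read 19.2, 13.4 and 16.8 CPM, 11.8, 36.8 and 34.5 CPM, and 8.64, 6.97 and 5.84 CPM in the same order. In both genes replicate 1 of lenti-TCF7L2 WT stood at the low end of the controls or below them, while replicates 2 and 3 stood above them. Neither was called with the hairpin (log2 differences -1.28 and -1.20, adjusted p = 0.0973 and 0.1501), although no shRNA library overlapped a control.

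Trim25 and Trim21, ubiquitin ligases of the antiviral response, had the widest spread among lenti-TCF7L2 WT libraries. Trim25 read 50.1, 103 and 17.4 CPM there, against 60.3, 58.2 and 56.7 CPM with lenti-NC and 36.3, 32.0 and 30.4 CPM with lenti-TCF7L2 shRNA. Trim21 read 5.86, 11.1 and 2.99 CPM there, against 6.48 to 8.54 CPM with lenti-NC and 6.70 to 8.05 CPM with lenti-TCF7L2 shRNA. In both, replicate 2 was above and replicate 3 below every other library. Trim25 and Trim21 were called in none of the 3 comparisons with all 9 libraries in the fit, and the spread of lenti-TCF7L2 WT enters the error of all 3. For Trim25 all 3 shRNA libraries lay below all 3 controls (21% of all genes did). With only those 6 libraries in the fit it was called lower (log2 difference -0.83, adjusted p = 2.63e-09, edgeR), as were 15.5% of all genes. Trim21 was not called there (log2 difference 0.02, adjusted p = 0.933, edgeR).

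The oligoadenylate synthetase family is named for enzymes that, on binding double-stranded RNA, make the second messenger that activates RNase L. Oasl read 17.1, 14.6 and 16.3 CPM with lenti-NC, 22.6, 35.1 and 26.0 CPM with lenti-TCF7L2 WT, and 5.81, 4.24 and 4.71 CPM with lenti-TCF7L2 shRNA. The 3 groups were apart in both directions. Oasl rose with lenti-TCF7L2 WT (log2 difference 0.80, SE 0.17, adjusted p = 0.00797) and fell with the hairpin (log2 difference -1.70, SE 0.19, adjusted p = 0.00283, edgeR).

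Oas1a and Oas1b lie near each other on the chromosome and belong to the same family, so reads could be split between them. How alike their sequences are was not analysed here, and their separate values are uncertain. Oas1b read 21.2, 18.2 and 19.6 CPM with lenti-NC, 20.7, 44.0 and 33.3 CPM with lenti-TCF7L2 WT, and 16.6, 12.8 and 13.3 CPM with lenti-TCF7L2 shRNA. It was called higher with lenti-TCF7L2 WT although replicate 1 lay within the control range (log2 difference 0.73, SE 0.24, adjusted p = 0.0441, edgeR), and its difference with the hairpin was not called (log2 difference -0.46, SE 0.24, adjusted p = 0.411). For Oas1a the log2 differences were 0.62 with lenti-TCF7L2 WT and -1.71 with the hairpin (adjusted p = 0.226 and 0.0605).

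Oas2 was the lowest of the set and had few reads, 37, 26 and 32 counts with lenti-NC, 18, 34 and 12 counts with lenti-TCF7L2 WT, and 7, 5 and 2 counts with lenti-TCF7L2 shRNA. Its fall with the hairpin was the largest of the 36 on the log2 scale (log2 difference -2.76, SE 0.50, adjusted p = 0.0188, edgeR). On the scale of log2(FPKM + 1), which shrinks differences of low genes, it was -0.75, smaller than that of Ifit3 (-1.58). Alone among the oligoadenylate synthetases it had a negative difference with lenti-TCF7L2 WT (log2 difference -0.67, SE 0.38, adjusted p = 0.206), which was not called.

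Of the IFIT proteins, which bind foreign RNA ends or partner those that do, Ifit3 read 17.6, 10.0 and 11.8 CPM with lenti-NC, 11.3, 25.3 and 29.7 CPM with lenti-TCF7L2 WT, and 3.96, 2.28 and 2.39 CPM with lenti-TCF7L2 shRNA. It fell with the hairpin (log2 difference -2.19, SE 0.41, adjusted p = 0.0212) and was not called with lenti-TCF7L2 WT (log2 difference 0.75, SE 0.36, adjusted p = 0.134, edgeR). The span between both vectors, 2.94 (SE 0.41, adjusted p = 7.18e-04), was the widest among the 36. Its neighbour Ifit2 had a smaller difference, -0.57 with the hairpin (adjusted p = 0.175), with shRNA libraries between 37.4 and 38.1 CPM and controls between 46.9 and 66.8 CPM.

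Of the 4 membrane restriction factors, 3 were called higher with lenti-TCF7L2 WT (18% of all genes were) and 2 lower with the hairpin (2.32%). The differences between these genes were not tested. Bst2 read 42.2, 40.9 and 40.8 CPM with lenti-NC, 36.5, 44.97 and 56.0 CPM with lenti-TCF7L2 WT, and 13.7, 11.1 and 11.1 CPM with lenti-TCF7L2 shRNA. The shRNA libraries formed a tight group far below the controls, and the lenti-TCF7L2 WT libraries lay on both sides of them. Bst2 fell with the hairpin (log2 difference -1.79, SE 0.16, adjusted p = 0.00123) and gave no call with lenti-TCF7L2 WT (log2 difference 0.15, SE 0.15, adjusted p = 0.463, edgeR).

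Ifitm3 was called with lenti-TCF7L2 WT. It read 285, 303 and 311 CPM with lenti-NC, 539, 511 and 808 CPM with lenti-TCF7L2 WT, and 230, 195 and 219 CPM with lenti-TCF7L2 shRNA. It rose with lenti-TCF7L2 WT (log2 difference 1.05, SE 0.16, adjusted p = 0.00163), and its difference with the hairpin was not called (log2 difference -0.48, SE 0.16, adjusted p = 0.166, edgeR). All 3 shRNA libraries lay below all 3 controls, though, and with only those 6 libraries in the fit Ifitm3 was called lower (adjusted p = 3.48e-07). Ifitm2, from the same cluster of genes, read 150, 158 and 152 CPM with lenti-NC, 257, 234 and 355 CPM with lenti-TCF7L2 WT, and 132, 126 and 134 CPM with lenti-TCF7L2 shRNA. Ifitm2 rose with lenti-TCF7L2 WT (log2 difference 0.87, SE 0.14, adjusted p = 0.00175) and was not called with the hairpin (log2 difference -0.23, SE 0.14, adjusted p = 0.489). Its shRNA libraries too lay below the controls, and with only those 6 libraries it was called lower (adjusted p = 3.54e-04, edgeR).

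Ifitm1, which sits between them and acts mainly at the cell surface, was called both ways. It read 144, 148 and 147 CPM with lenti-NC, 264, 263 and 371 CPM with lenti-TCF7L2 WT, and 85.6, 76.1 and 82.5 CPM with lenti-TCF7L2 shRNA. It rose with lenti-TCF7L2 WT (log2 difference 1.04, SE 0.13, adjusted p = 5.66e-04) and fell with the hairpin (log2 difference -0.84, SE 0.13, adjusted p = 0.0104, edgeR). In all 3 Ifitm genes replicate 1 of lenti-TCF7L2 WT was well above the controls, unlike in most of the set. The Ifitm genes are close paralogs, so reads could be shared between them.

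**Figure D4:**
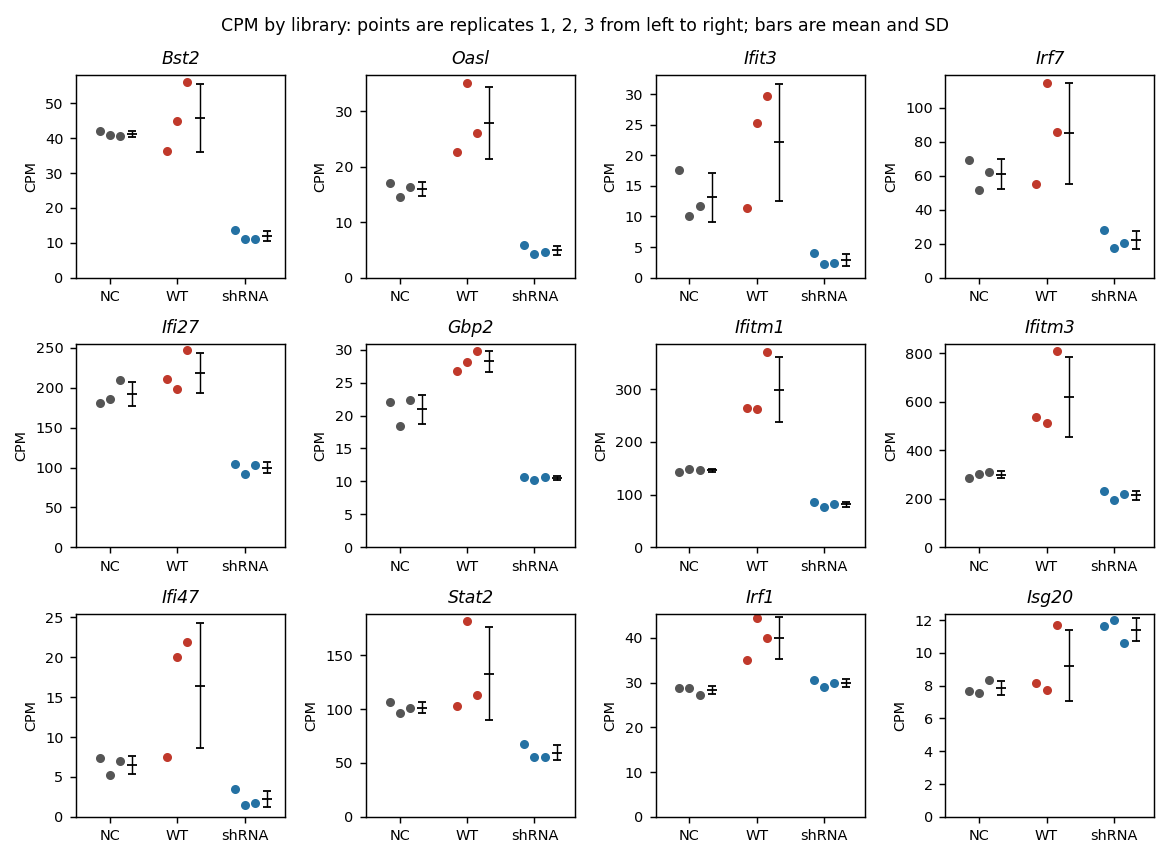
CPM (vertical axis, from 0) in each of the 9 libraries for 12 interferon genes, with 1 panel per gene, points for replicates 1 to 3 from left to right and bars for the mean and SD of each group. The shRNA libraries of Bst2 lie at 11.1 to 13.7 CPM, under the controls at 40.8 to 42.2 CPM, and the lenti-TCF7L2 WT libraries of Ifitm3 lie at 511 to 808 CPM, above the controls at 285 to 311 CPM.

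The Mx proteins are dynamin-like GTPases that trap viral nucleocapsids. Mx1 read 20.4, 13.4 and 19.0 CPM with lenti-NC, 17.1, 27.9 and 32.2 CPM with lenti-TCF7L2 WT, and 11.5, 5.04 and 6.001 CPM with lenti-TCF7L2 shRNA. Mx2 read 73.8, 43.9 and 57.3 CPM, 37.0, 119 and 97.5 CPM, and 34.8, 23.4 and 23.3 CPM in the same order. In Mx2, replicate 1 of lenti-TCF7L2 WT was below all controls and the other two were above. Both were called only between the TCF7L2 vectors, Mx1 by 1.78 (SE 0.34, adjusted p = 0.00404) and Mx2 by 1.64 (SE 0.39, adjusted p = 0.0122, edgeR).

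All 5 guanylate-binding and immunity-related GTPases, which attack the vacuoles of intracellular microbes, lay lower in every shRNA library than in every control (21% of all genes did), and 3 of them were called (2.32% of all genes were). Gbp2 read 22.1, 18.4 and 22.3 CPM with lenti-NC, 26.7, 28.1 and 29.9 CPM with lenti-TCF7L2 WT, and 10.7, 10.2 and 10.6 CPM with lenti-TCF7L2 shRNA. It rose with lenti-TCF7L2 WT (log2 difference 0.43, SE 0.10, adjusted p = 0.0113) and fell with the hairpin (log2 difference -0.997, SE 0.10, adjusted p = 0.00237, edgeR). Gbp2, Ifitm1 and Oasl were called against lenti-NC with both vectors. Higher with lenti-TCF7L2 WT were 18% of all genes, and lower with the hairpin 2.32%. The share of all genes called with both was not analysed here, so the number of such genes is not read as a result. The call on Gbp2 with lenti-TCF7L2 WT was lost with only the 6 libraries compared (adjusted p = 0.0513, edgeR).

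Gbp5, a relative of Gbp2, read 19.2, 14.2 and 18.0 CPM with lenti-NC, 18.8, 25.4 and 15.4 CPM with lenti-TCF7L2 WT, and 9.17, 9.25 and 8.11 CPM with lenti-TCF7L2 shRNA. It fell with the hairpin (log2 difference -0.95, SE 0.19, adjusted p = 0.0297), and its lenti-TCF7L2 WT libraries overlapped the controls. Irgm read 17.8, 13.8 and 14.2 CPM with lenti-NC, 15.2, 30.1 and 23.5 CPM with lenti-TCF7L2 WT, and 7.91, 7.04 and 5.91 CPM with lenti-TCF7L2 shRNA. It fell with the hairpin as well (log2 difference -1.14, SE 0.24, adjusted p = 0.0394, edgeR).

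Ifi47 had the largest difference of the set with lenti-TCF7L2 WT. It read 7.40, 5.25 and 6.95 CPM with lenti-NC, 7.43, 20.0 and 21.9 CPM with lenti-TCF7L2 WT, and 3.43, 1.499 and 1.72 CPM with lenti-TCF7L2 shRNA. Replicate 1 of lenti-TCF7L2 WT was level with the highest control, and the other two were far above. It was called higher with lenti-TCF7L2 WT (log2 difference 1.33, SE 0.40, adjusted p = 0.0331) and not called with the hairpin (log2 difference -1.56, SE 0.46, adjusted p = 0.118, edgeR). Igtp, the last of these GTPases, had log2 differences of 0.57 and -0.71, neither called (adjusted p = 0.0717 and 0.130).

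Parp9, Dtx3l and Parp14 lie side by side in the RefSeq order, and the first 2 form an enzyme complex that modifies histones and viral proteins. None was called against lenti-NC in either direction, with log2 differences of 0.38 to 0.49 with lenti-TCF7L2 WT and -0.70 to -0.41 with the hairpin. The former rest on replicate 2 of lenti-TCF7L2 WT for Parp14 and Dtx3l, whose values were 0.017 and 0.087 without it. In all 3 the shRNA libraries lay below the controls without overlap (21% of all genes did). Between the TCF7L2 vectors all 3 were called higher in lenti-TCF7L2 WT (18.4% of all genes were). Their log2 differences ran from 0.90 (SE 0.25) for Dtx3l to 1.12 (SE 0.24) for Parp14, which became 0.49 and 0.72 without that replicate.

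Among the nucleotide and RNA enzymes, Rsad2 read 11.5, 5.66 and 8.29 CPM with lenti-NC, 9.64, 17.4 and 12.3 CPM with lenti-TCF7L2 WT, and 3.96, 2.61 and 2.39 CPM with lenti-TCF7L2 shRNA. It fell with the hairpin (log2 difference -1.504, SE 0.33, adjusted p = 0.0434, edgeR). Its neighbour Cmpk2 was not called (log2 difference -0.97, SE 0.28, adjusted p = 0.112), with shRNA libraries at 3.58 to 4.55 CPM and controls at 6.33 to 10.7 CPM.

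Isg20, an RNA exonuclease, went the other way with the hairpin. It read 7.67, 7.54 and 8.35 CPM with lenti-NC, 8.19, 7.75 and 11.7 CPM with lenti-TCF7L2 WT, and 11.7, 11.99 and 10.6 CPM with lenti-TCF7L2 shRNA. All 3 shRNA libraries were above all 3 controls, but the difference was not called in the fit of 9 libraries (log2 difference 0.54, SE 0.16, adjusted p = 0.118, edgeR). Isg20 holds the common ISRE word GAAACTGAAA, printed above, as Irgm does, which fell.

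Of the remaining genes, Ifi27 read 181, 186 and 209 CPM with lenti-NC, 212, 198 and 247 CPM with lenti-TCF7L2 WT, and 104, 92.5 and 103 CPM with lenti-TCF7L2 shRNA. It fell with the hairpin (log2 difference -0.95, SE 0.10, adjusted p = 0.00238) and was not called with lenti-TCF7L2 WT (log2 difference 0.19, SE 0.10, adjusted p = 0.178, edgeR). Rtp4, a chaperone of receptor transport that also binds viral RNA, read 15.2, 12.2 and 14.2 CPM with lenti-NC, 12.9, 26.1 and 26.1 CPM with lenti-TCF7L2 WT, and 6.32, 4.55 and 4.68 CPM with lenti-TCF7L2 shRNA. Rtp4 fell with the hairpin (log2 difference -1.41, SE 0.28, adjusted p = 0.0261).

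Sp110, a nuclear body protein, rose with lenti-TCF7L2 WT. It read 58.6, 49.97 and 56.1 CPM with lenti-NC, 62.9, 89.1 and 92.8 CPM with lenti-TCF7L2 WT, and 44.9, 40.9 and 39.5 CPM with lenti-TCF7L2 shRNA. Its difference was 0.57 with lenti-TCF7L2 WT (SE 0.14, adjusted p = 0.0154) and -0.39 with the hairpin (SE 0.14, adjusted p = 0.209, edgeR). Ifi44 and Ifi35, interferon-induced proteins of less defined function, were not called against lenti-NC. Ifi35 was the only gene with a negative difference whose shRNA libraries overlapped the controls (8.603 to 13.9 CPM against 13.7 to 15.3 CPM).

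Of the 12 genes that fell with the hairpin, 9 had a promoter entry and 8 of these held an ISRE, the exception being Oasl. The genes with an ISRE that were not called against lenti-NC with either vector were Oas1a, Parp14, Igtp, Ifi44, Trim21 and Isg20. Called and uncalled members thus both hold these letters.

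**Figure D5:**
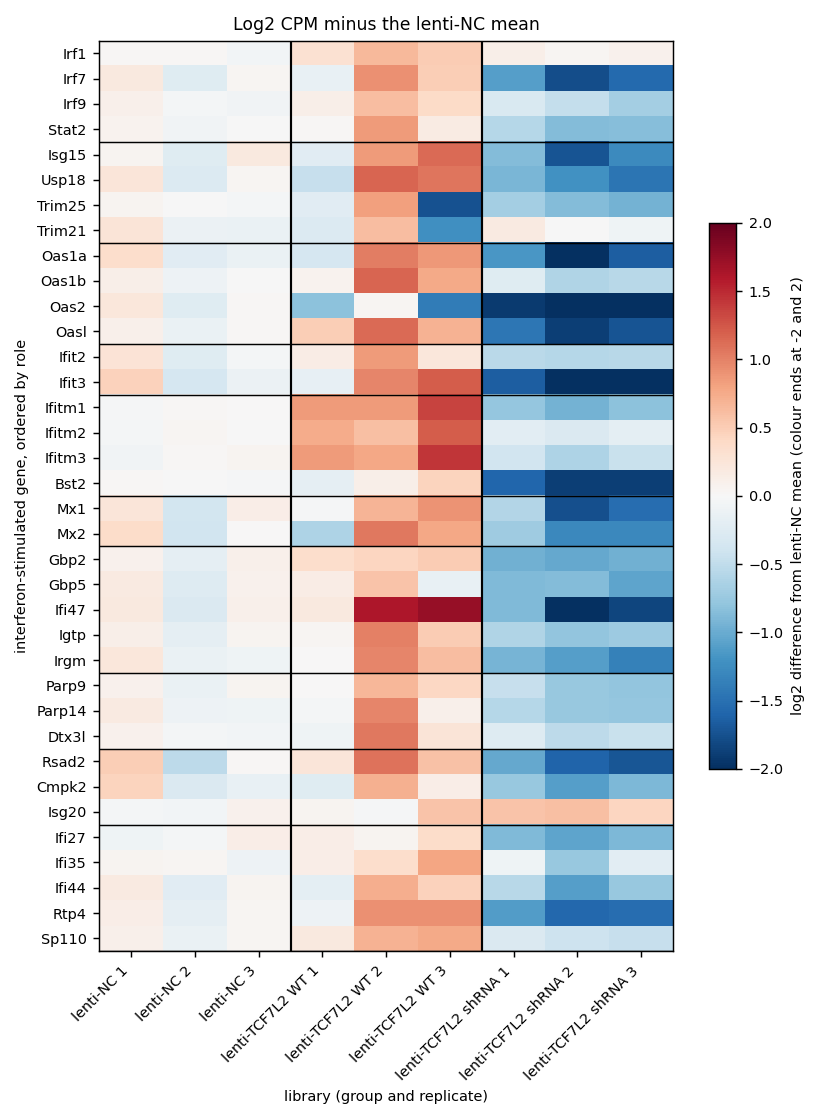
Log2 CPM of each of the 36 interferon genes (rows, ordered by role) in each of the 9 libraries (columns) minus the lenti-NC mean. The 3 shRNA libraries have medians of -0.698, -0.984 and -0.902, and replicate 1 of lenti-TCF7L2 WT has a median of 0.018 while replicates 2 and 3 reach 0.834 and 0.542.

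The libraries of a group did not behave alike. Relative to the lenti-NC mean, the median log2 CPM of the 36 genes was 0.018, 0.834 and 0.542 in the lenti-TCF7L2 WT replicates, against -0.698, -0.984 and -0.902 in the shRNA replicates and 0.112, -0.137 and 0.014 in the controls themselves. The shRNA libraries were thus all low, while replicate 1 of lenti-TCF7L2 WT sat at control level. In that replicate 11 genes were above the control range and 8 below it, while in replicates 2 and 3, 33 and 29 were above and 0 and 3 below. Over all genes tested, 42.4%, 42.8% and 46.3% lay above the control range in these 3 libraries and 39%, 37.5% and 42.9% below it.

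Within a group the genes shared an order of libraries. Replicate 1 of lenti-TCF7L2 WT was the lowest of its group for 27 of the 36 genes and the highest for 0, where 16.8% of all genes had their lowest value in it. In lenti-NC, replicate 1 was the highest for 28 of the 36 genes (35% of all genes) and replicate 2 the lowest for 25 (31.2%). In lenti-TCF7L2 shRNA, replicate 1 was likewise the highest for 33 (32.9%) and replicate 2 the lowest for 23 (35.1%). The median SD of log2 CPM was larger for the 36 genes than for all genes in each group, 0.155 against 0.0802 in lenti-NC, 0.475 against 0.241 in lenti-TCF7L2 WT, and 0.178 against 0.0789 in lenti-TCF7L2 shRNA. Library-wide shifts of the set thus occurred among replicates of 1 group, so the genes are not independent observations of a condition.

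The counts of calls differed with the libraries in the fit, which supply 1 estimate of spread for all groups. With only the 6 libraries compared, 32 genes were called lower with the hairpin and 1, Isg20, higher (adjusted p = 5.79e-04), while 13% of all genes were called higher and 15.5% lower. Leaving out replicate 3 of lenti-TCF7L2 WT gave 30 called lower and Isg20 higher (1286 and 770 of all genes), and leaving out replicate 2 gave 19 lower (395 of all genes). Leaving out lenti-NC replicates 1, 2 and 3 in turn gave 5, 4 and 4 lower, when 125, 77 and 78 of all genes were. Leaving out the shRNA replicates gave 6, 4 and 4, when 102, 66 and 72 of all genes were. Bst2, Oasl, Gbp2 and Ifi27 were called lower under all 21 alternatives tried, and the other 8 lost their call when lenti-NC replicate 2 or 3, or shRNA replicate 2 or 3, was left out. Without lenti-NC replicate 1, 7 of these 8 lost it (all but Ifitm1), without shRNA replicate 1, 6 did (not Ifitm1 or Irf7), and Gbp5 lost it without replicate 1 of lenti-TCF7L2 WT. The median of the 36 stayed between -0.956 and -0.830 as single libraries were left out.

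In the comparison of lenti-TCF7L2 WT with lenti-NC, 20 genes were called higher without replicate 1 of lenti-TCF7L2 WT (1559 of all genes), 15 without replicate 3 (2502 of all genes) and 5 with only the 6 libraries compared (10.9% of all genes higher and 9.07% lower). The median of the 36 was 0.699 without replicate 1 of lenti-TCF7L2 WT and 0.329 without replicate 2, against 0.495 with all. Without replicate 2, Oas2 was called lower (log2 difference -1.21) and Oas1b had a log2 difference of 0.45. Irf1, Oasl, Ifitm1, Ifitm2 and Ifitm3 were called under all 21 alternatives. The call on Ifi47 was lost without any 1 of the 3 controls, without replicate 2 of lenti-TCF7L2 WT or without shRNA replicate 3. That on Oas1b was lost without any 1 control, any 1 shRNA library or replicate 2 of lenti-TCF7L2 WT, and that on Sp110 without lenti-NC replicate 2. Between the TCF7L2 vectors 29 to 34 genes were called higher as single libraries were left out. With all 9 libraries, 33 of the 36 and 18.4% of all genes were. Oas2, Mx2, Dtx3l and Ifi35 lost the call without shRNA replicate 2 or 3. With only the 6 libraries compared, 31 were called higher there and 0 lower, with 13.3% of all genes higher and 9.32% lower.

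The signalling genes upstream of the set were read from a list of 24 interferon ligands, receptors, kinases and regulators, of which 21 were listed and 18 tested. Interferon transcripts were at or near 0. Ifnb1 had 0 counts in all controls and all shRNA libraries and 0, 4 and 2 counts with lenti-TCF7L2 WT, and Ifng had 1 count in 1 lenti-TCF7L2 WT library. With the hairpin none of the 18 was called by edgeR. With lenti-TCF7L2 WT 6 were called higher and 0 lower, beside 18% and 13.8% of all genes, namely Ifngr1 (0.49), Jak2 (0.81), Irf3 (0.75), Irf5 (0.71), Socs1 (1.25) and Socs3 (0.92). Socs1 and Socs3 encode feedback inhibitors of the JAK kinases, and Ifngr1 a chain of the interferon gamma receptor.

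A further 48 interferon-induced genes outside the set were read in the same way, with 37 listed and 34 tested. With the hairpin 8 were called lower and 0 higher, beside 2.32% and 1.32% of all genes, with a median of -0.447. They include Cxcl10, a chemokine (log2 difference -1.97, SE 0.26, adjusted p = 0.00588), and Psmb9, an immunoproteasome subunit (log2 difference -0.99, SE 0.17, adjusted p = 0.0148, edgeR). With lenti-TCF7L2 WT 10 were called higher and 0 lower, beside 18% and 13.8% of all genes, with a median of 0.355. Of these 10, Psmb9, Psmb10, Psme2, Tap1 and Tap2 serve antigen processing. Tap1 read 29.2, 27.2 and 28.1 CPM with lenti-NC and 38.7, 58.9 and 58.5 CPM with lenti-TCF7L2 WT, so all 3 replicates were above control (log2 difference 0.89, SE 0.15, adjusted p = 0.00273).

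Marker genes of other cell types were summed in each library, since cultures of neonatal heart hold more than muscle cells. Of the 10 cardiomyocyte markers 9 were listed, and their sum was 43000 to 45100 CPM with lenti-NC, 19200 to 23400 with lenti-TCF7L2 WT and 39600 to 41200 with lenti-TCF7L2 shRNA. The 12 endothelial markers summed to 90.1 to 113 CPM with lenti-NC, 93.6 to 94.4 with lenti-TCF7L2 shRNA, and 189, 277 and 261 in the lenti-TCF7L2 WT replicates, where replicate 1 was again the lowest. Kdr, with a mean of 48.9 CPM in lenti-NC, went the other way with lenti-TCF7L2 WT and was not called (log2 difference -0.50, SE 0.19, adjusted p = 0.0722, edgeR). The 15 macrophage and leukocyte markers summed to 48.9 to 50.5 CPM with lenti-NC, 86.3 to 91.8 with lenti-TCF7L2 WT and 52.1 to 55.4 with lenti-TCF7L2 shRNA. C1qb and Cd163 were at 0 in all 3 controls, and Cd163 in all 3 shRNA libraries. The epicardial list (5 of 6 listed) summed to 102 to 124, 141 to 165 and 80.0 to 86.7 CPM in the same group order, and the lymphocyte and plasmacytoid list (3 of 8 listed) to at most 0.126 CPM in any library. The 8 smooth muscle and pericyte markers summed to 7410 to 7510, 6820 to 7890 and 7040 to 7190 CPM in that order. Of these, 2 (Pdgfrb and Kcnj8) were called higher and 0 lower with lenti-TCF7L2 WT, and none was called with the hairpin.

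With lenti-TCF7L2 WT, 8 of 9 cardiomyocyte markers were called lower (13.8% of all genes were). Called higher were 11 of 12 endothelial markers, all but Kdr, and 6 of 10 tested macrophage markers (18% of all genes were), beside the 9 interferon genes. With the hairpin no cardiomyocyte or endothelial marker was called, where 1.32% of all genes were called higher and 2.32% lower. Of the macrophage markers 2 were called higher and 0 lower there. The 10 fibroblast markers summed to 34600 to 35800 CPM with lenti-NC, 37300 to 44800 with lenti-TCF7L2 WT and 37700 to 39700 with the hairpin. Single fibroblast markers did not follow that sum, with 3 (Dcn, Lum and Tcf21) called lower and 0 higher with the hairpin, and 4 (the same 3 and Pdgfra) called higher and 2 (Postn and Thy1) lower with lenti-TCF7L2 WT. Of the 5 epicardial markers 1, Aldh1a2, was called lower with the hairpin (log2 difference -0.95, SE 0.15, adjusted p = 0.0104, edgeR), and 3 (Wt1, Krt19 and Aldh1a2) were called higher with lenti-TCF7L2 WT. Dcn, Lum, Tcf21 and Aldh1a2 were thus called in the same directions as the interferon genes in both comparisons with lenti-NC. The part of these cell types in the differences of the interferon genes was not tested.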

How the data were processed

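Messenger RNA of 9 samples was analysed from 1 deposited table per library. Per the file headers, each table gives for every gene its length, an expected count (an estimate of its fragments, not normalised) and FPKM, fragments scaled by the authors to gene length and library size. The rn6 build is named in the submitters' processing notes along with RSEM 1.3.1, HISAT2, DESeq2 1.4.5 and Bowtie2, whose roles are not given in the sources used here. Strandedness is not given in the sources used here.

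Groups came from the sample titles. Expected counts, 84.2% to 84.5% of them whole, were rounded, absent genes were set to 0, and filterByExpr kept 11761 genes and set aside 2846. R 4.3.3 and edgeR 4.0.16 were used for a 2-sided quasi-likelihood test after TMM scaling. The 9 libraries entered 1 model with a term for group, and p-values were adjusted by Benjamini-Hochberg over all genes tested. An adjusted p under 0.05 was called. The standard error is the log2 difference over the square root of F. Log2 CPM used a prior count of 2. The code was tested on simulated data. Alternatives used DESeq2 1.42.0, limma 3.58.1 on log2 of FPKM plus 0.1 or plus 1, other scalings and filters, a replicate block, an adjustment for gene length, and fewer libraries.

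Promoters came from the RefSeq table of GRCr8, while the counts are on rn6. No 2 libraries of the same group agreed within counting noise. Every member is named by role. Values in every library were to be given for members called, taking the first 12 by adjusted p where more were called, and a few others chosen after their values were seen were added. Members and lists were chosen with earlier results of these data known. A comparison of protein sequences was not analysed here.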

Additional observations from a re-analysis of the deposited data

How the results depend on the processing

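For the interferon genes the median log2 difference kept its sign in all 3 comparisons under all 21 alternatives each. Counts of calls depended on the libraries that set the spread. With lenti-TCF7L2 shRNA against lenti-NC, 12 genes were called lower in the fit of all 9 libraries, 23 with DESeq2, 32 with only the 6 libraries compared, 19 with the length adjustment and 30 with that adjustment and without lenti-TCF7L2 WT replicate 3. Leaving out 1 library gave 4 to 30. Called higher were 0, and 1 (Isg20) with the 6 libraries, the length adjustment, or that adjustment without lenti-TCF7L2 WT replicate 3, with 0 to 1 on leaving out 1 library. With lenti-TCF7L2 WT against lenti-NC, 9 were called higher, 5 with the 6 libraries, 19 with the length adjustment and without lenti-TCF7L2 WT replicate 3, and 6 to 20 on leaving out 1 library, which gave 0 to 1 called lower. Between the TCF7L2 vectors, 1 was called lower with the length adjustment, with or without lenti-TCF7L2 WT replicate 3, and 0 to 1 on leaving out 1 library. The cause of these shifts was not tested.

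Over all genes tested, lenti-TCF7L2 WT against lenti-NC gave 2116 higher and 1622 lower. With the 6 libraries these were 1265 and 1056, with the length adjustment and without lenti-TCF7L2 WT replicate 3 the lower count was 2641, and leaving out 1 library gave 1341 to 2783 higher and 1079 to 2698 lower. The hairpin comparison gave 155 higher and 273 lower. DESeq2 called 435 lower, the 6 libraries gave 1507 and 1787, the length adjustment 382 and 607, that adjustment without lenti-TCF7L2 WT replicate 3 gave 1135 and 1479, and leaving out 1 library 19 to 770 and 66 to 1286. Between the TCF7L2 vectors 1729 were lower, 1087 with the 6 libraries, 2875 with the length adjustment and without lenti-TCF7L2 WT replicate 3, and 1190 to 2721 on leaving out 1 library.

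Over all genes tested, libraries with the same replicate number did not deviate together in every pair (residual r from -0.067 to 0.151, over 0.1 in 2 of 9 pairs), so the numbers were not taken as pairs. For the 36 genes, replicate 1 was most often highest and replicate 2 most often lowest in both lenti-NC and lenti-TCF7L2 shRNA. With a replicate block the hairpin comparison had 6 interferon genes lower against 12 without it, and 81 genes higher and 163 lower among all tested.

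Signs turned for 7 differences, none called with all 9 libraries. Of these, Trim21 between the TCF7L2 vectors was called lower (-0.74) without lenti-TCF7L2 WT replicate 2, and Gbp5 with lenti-TCF7L2 WT was called higher (0.36) with the length adjustment and without replicate 3. With lenti-TCF7L2 WT against lenti-NC, Trim25 went from -0.04 to 0.03 without lenti-TCF7L2 WT replicate 1, to 0.37 without replicate 3 and to 0.38 with the length adjustment as well (-0.81 to 0.37 on leaving out 1 library). Trim21 went from -0.12 to 0.02 without lenti-NC replicate 1, to 0.22 without lenti-TCF7L2 WT replicate 3 and to 0.21 with the adjustment as well (-0.72 to 0.22 on leaving out 1 library). Bst2 went from 0.15 to -0.038 without lenti-TCF7L2 WT replicate 3 (up to 0.28 without another library), to -0.014 with the length adjustment and to -0.022 with both. Without lenti-TCF7L2 WT replicate 2, Gbp5 was -0.017 and Cmpk2 -0.087, and the highest values on leaving out 1 library were 0.35 and 0.48. With the hairpin, Trim21 went from 0.02 to -0.04 and -0.05 without lenti-NC replicates 2 and 3, to -0.059 without shRNA replicate 1 (up to 0.16 without another library), to -0.011 with the length adjustment and to -0.0046 with that and without lenti-TCF7L2 WT replicate 3. Between the TCF7L2 vectors Trim21 was 0.21 without lenti-TCF7L2 WT replicate 3, with or without the adjustment, and -0.74 to 0.21 on leaving out 1 library. Oas2, at 2 to 37 counts per library, is the gene most limited by depth.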
